A study of Mus musculus with 4 samples.

Results

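The genes described here are the interleukin 1 (IL-1) and interleukin 18 (IL-18) receptor family: Il1r1, Il1r2, Il1rap, Il1rl1, Il1rl2, Il18r1, Il18rap and Sigirr, the receptor antagonist gene Il1rn, and Gm38070, a transcript annotated inside the Il1r1 region. They were taken by gene symbol from the deposited table, and all 10 were found among its 16555 genes. The family was chosen by its measured log2 differences between the same libraries, which had been seen before. RNA was sequenced from CD4+ T cells sorted as CD45+CD3+CD4+ from the colons of Rag1-/- mice with colitis, 6 weeks after the mice had received CD4+CD25-CD45RBhi T cells. In 2 libraries the donor T cells were CK2αfl/fl and carried dLck-Cre, a Cre transgene under the distal promoter of Lck that is active in mature T cells, and in the other 2 they were CK2αfl/fl without Cre. Both donor genotypes thus carried the floxed allele of CK2α, the catalytic subunit of protein kinase CK2 encoded by Csnk2a1, and both were placed in Rag1-/- hosts, which lack T and B cells of their own. The labels give no age, sex or strain background, and do not say whether a library came from 1 animal or from several, so the spread between libraries may be technical in part.

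Receptors of this family are built from a ligand-binding chain and an accessory chain whose cytoplasmic Toll/IL-1 receptor domains recruit the adaptor MyD88 and activate NF-kB and MAP kinases. IL-1 acting through IL1R1 promotes Th17 cells, IL-18 acts with IL-12 on Th1 cells, and IL-33 acts through ST2, the product of Il1rl1, on Th2 cells and on regulatory T cells of the gut. The family has its own brakes, among them the decoy receptor IL1R2, the soluble antagonist encoded by Il1rn, and SIGIRR, a receptor that dampens signalling.

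Most of the receptor genes lie next to each other on chromosome 1 (GRCm38), in the order Il1r2 (40074079 to 40125231), Il1r1 (40225080 to 40317257), Il1rl2 (40324610 to 40367562), Il1rl1 (40429570 to 40465415), Il18r1 (40465552 to 40500854) and Il18rap (40515362 to 40551705), all on the plus strand. Il1rn is on chromosome 2 (24336853 to 24351494), Sigirr on chromosome 7 (141091175 to 141100572, minus strand) and Il1rap on chromosome 16 (26581704 to 26730117). The longest annotated coding sequence has 410 codons in Il1r2, the decoy, against 576 in Il1r1, the signalling receptor, and 178 in Il1rn, the secreted antagonist. Gm38070 (40238020 to 40244499, plus strand) is annotated as TEC, a GENCODE class for transcripts that still await experimental evidence. It is a single exon of 6480 bases that begins 12940 bases after the start of Il1r1 and shares 0 exon bases with it, so it lies within an Il1r1 intron.

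The promoters of the 2 protein-coding members whose libraries stood furthest apart are shown because a gene count cannot tell which start site was used. RefSeq (GRCm38.p6) lists start sites for 8 of the 10 members, in 14 entries. Il1r1 has a start upstream of Gm38070 and another downstream of it, and the 250 bases before each, and before the first start of Il1rn, read as follows, with capitals for matches to AGGTCA (a nuclear receptor half-site) or TGANTCA (AP-1) on either strand.
Il1r1 upstream start, chr1:40224830-40225079 (plus strand): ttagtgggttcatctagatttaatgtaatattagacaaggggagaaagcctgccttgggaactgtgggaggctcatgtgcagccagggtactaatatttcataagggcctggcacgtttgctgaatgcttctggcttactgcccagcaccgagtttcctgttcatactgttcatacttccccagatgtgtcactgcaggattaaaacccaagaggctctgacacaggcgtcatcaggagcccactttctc
Il1r1 downstream start, chr1:40266336-40266585 (plus strand): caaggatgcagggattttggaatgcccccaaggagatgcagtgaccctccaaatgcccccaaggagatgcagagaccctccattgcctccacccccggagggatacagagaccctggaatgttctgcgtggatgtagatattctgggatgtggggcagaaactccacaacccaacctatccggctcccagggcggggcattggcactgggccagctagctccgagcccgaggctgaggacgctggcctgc
Il1rn first start, chr2:24336610-24336859 (plus strand): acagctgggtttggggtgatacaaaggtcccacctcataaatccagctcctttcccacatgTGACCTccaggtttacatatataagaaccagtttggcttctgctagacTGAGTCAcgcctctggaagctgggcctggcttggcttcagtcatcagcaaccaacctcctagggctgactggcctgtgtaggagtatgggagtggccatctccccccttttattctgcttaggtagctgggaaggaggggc
Neither Il1r1 window held a match to these motifs, or to TTCNNNGAA (STAT) or TGTGGT (RUNX). The Il1rn window held the reverse complement of AGGTCA at position -189 relative to the start site and TGANTCA at position -141, while the windows before the other 2 starts of Il1rn held no match. In all, 9 of the 14 entries of the family held none. Of all 32851 promoter windows of that length in the table, 14.0% held AGGTCA, 7.02% TTCNNNGAA, 6.75% TGANTCA and 14.0% TGTGGT on either strand. A match to letters is a description of the window and was not tested as a binding site.

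The libraries carried 16777017 and 22422971 recovered reads in dLck-Cre and 18517974 and 17666457 in fl/fl. The targeted gene was not lower in dLck-Cre: Csnk2a1 had 2118 and 2031 normalized counts in dLck-Cre, against 1534 and 1597 in the fl/fl libraries (log2 difference 0.41 ± 0.13 SE; limma across all genes, adjusted p = 0.108). A gene count cannot show the loss of an exon, so each direction below is that of the libraries as labelled. T cell markers were present in every library, Cd4 for example at 12615 and 13443 normalized counts in the libraries labelled dLck-Cre and 18035 and 18818 in fl/fl. Genes of cells outside the sort gate were present as well and were higher in the libraries labelled dLck-Cre: 26 of 26 colonic epithelial markers and 25 of 26 monocyte and macrophage markers lay above 0, and 22 and 16 of them rose in limma's test. No epithelial or myeloid marker analysed was at 0 in a library. Epithelial markers took 0.746% and 0.862% of reads in dLck-Cre against 0.299% and 0.334% in fl/fl, and monocyte and macrophage markers 0.576% and 0.463% against 0.293% and 0.170%. T cell identity genes took 0.673% and 0.605% of reads in dLck-Cre against 0.921% and 0.902% in fl/fl, and 9 of 22 fell.

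The members were chosen by their differences between these same libraries, so the members' differences below are descriptions and carry no p-value. Il1r1, Gm38070 and Il1rn were past the threshold of the test over all genes (limma, Benjamini-Hochberg adjusted p of at most 0.05), 2 of the 10 as lower and 1 as higher in dLck-Cre. Over all 16490 genes tested 6.97% were past it, 1.22% as lower and 5.75% as higher. The median log2 difference was -0.27 over the 10 members and -0.02 over all genes tested. Below 0 lay 8 of the members and 8621 of the 16490 genes tested. In 6 of the 10 members the libraries of the groups did not overlap, 5 lower and 1 higher in dLck-Cre, where 55.2% of all genes tested had no overlap, 27.4% as lower and 27.7% as higher. edgeR on the recovered reads called the same 3 members against 6.87% of all genes (1.04% lower, 5.83% higher), and DESeq2 called 4, Il18r1 being the other, against 10.7% (2.55% lower, 8.17% higher). After scaling to T cell identity genes, described with Il1r1, the same 3 were called against 40.6% (0.291% lower, 40.3% higher). Without dLck-Cre replicate 2, which leaves that group without a replicate, limma put Il1r1 at -1.99, Gm38070 at -2.12 and Il1rn at 1.26. The calls lost in that setting are given in the last section, with those over all genes.

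**Figure D1:**
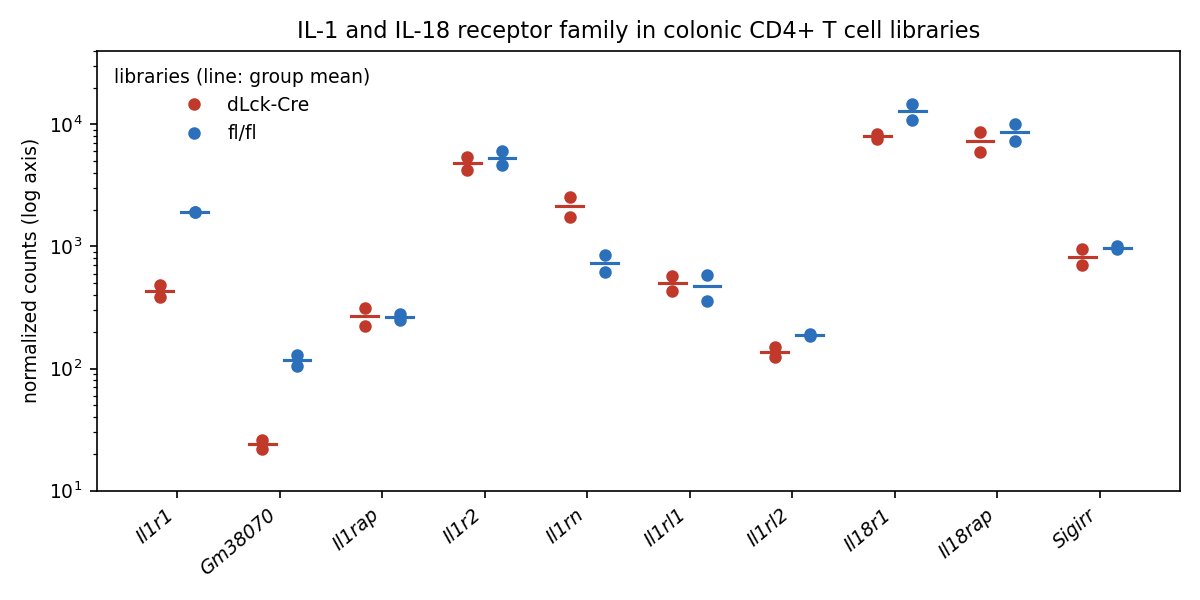
Normalized counts of the 10 members (log axis) in each library, with dLck-Cre in red to the left of fl/fl in blue and a line at each group's mean. Il1r1 and Gm38070 are well apart and lower in dLck-Cre, Il1rn is apart and higher in dLck-Cre, and Il1r2, Il1rl1, Il18rap and Il1rap overlap between the groups.

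Il1r1, the receptor through which IL-1 signals, had 479 and 384 normalized counts in dLck-Cre, against 1898 and 1902 in the fl/fl libraries. Both dLck-Cre libraries were low, the fl/fl libraries were almost equal, and the groups did not overlap. The log2 difference was -2.15 ± 0.16 (SE, n = 2 each), which put Il1r1 at rank 16 from the lowest among the 16490 genes tested. These are bulk libraries, in which fewer cells expressing a gene and less of its RNA per cell cannot be told apart. T cell identity genes also took a smaller share of reads in dLck-Cre, as given above. Their log2 differences ran from -1.41 for Icos to -0.11 for Cd247. A smaller share of T cell RNA and lower expression of these genes within T cells cannot be told apart. The part of either in the result was not tested. Scaling each library to the 22 T cell identity genes put Il1r1 at -1.56 ± 0.14. That scaling applies 1 factor to each library and so moves all genes together, with a median over all genes of 0.56 against -0.02 before.

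Gm38070 was low in the same libraries as Il1r1. It had 26.1 and 22.1 normalized counts in dLck-Cre, against 129.9 and 104.9 in fl/fl, a log2 difference of -2.23 ± 0.31 (SE) that rests on 25 and 27 reads in dLck-Cre and 125 and 95 in fl/fl. Of the reads counted for Gm38070 and Il1r1 together, Gm38070 held 5.18% (exact Clopper-Pearson 95% interval 3.38% to 7.55%) in dLck-Cre replicate 1 and 5.44% (3.62% to 7.82%) in dLck-Cre replicate 2. It held 6.41% (5.36% to 7.59%) in fl/fl replicate 1 and 5.23% (4.25% to 6.35%) in fl/fl replicate 2. These intervals cover counting error only, and each overlaps the other 3, so a change in the Gm38070 share was not detectable at this depth. Reads of Gm38070 cannot be told apart from unspliced Il1r1 RNA on the same strand.

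Il1rap, which encodes the accessory chain that IL1R1, ST2 and the IL-36 receptor share, did not follow Il1r1. It had 224 and 311 normalized counts in dLck-Cre, against 281 and 249.7 in fl/fl, with the fl/fl values inside the dLck-Cre range. The log2 difference of -0.005 ± 0.22 (SE) turned positive under several alternatives, among them T cell scaling (0.58). Per read of Il1r1 there were 0.467 and 0.810 reads of Il1rap in dLck-Cre, against 0.148 and 0.131 in fl/fl. Ratios to Il1r1, here and below, carry its own difference. A gene that fell less than Il1r1 has a higher mean log2 ratio to it in dLck-Cre by construction. Such ratios are no separate result on that gene. An antisense gene, Gm20319, shares 552 of the 11360 exon bases of Il1rap, and since the strand setting of the counting is not given in the sources used here, reads of the pair cannot be told apart.

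Il1r2, which encodes the decoy receptor that binds IL-1 without signalling, stayed within the spread of the libraries while Il1r1 was lower. It had 4243 and 5351 normalized counts in dLck-Cre, against 4648 and 6029 in fl/fl. The groups overlapped, and the log2 difference was -0.15 ± 0.18 (SE), which became 0.44 after T cell scaling. Within each library the ratio of Il1r2 to Il1r1 counts was 8.86 and 13.9 in dLck-Cre, against 2.45 and 3.17 in fl/fl. The ratio was higher in both dLck-Cre libraries, where its denominator Il1r1 was lower. Neutrophils also express IL1R2, and of 13 neutrophil markers 1, Csf3r, rose. The neutrophil list took 0.0351% and 0.0373% of reads in dLck-Cre against 0.0206% and 0.0453% in fl/fl. Monocyte and macrophage markers were higher in dLck-Cre, at a median of 1.12. The part of either list in the Il1r2 level was not tested.

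Il1rn, which encodes the antagonist that occupies IL1R1 without activating it, was the highest of the members relative to fl/fl. It had 1749 and 2561 normalized counts in dLck-Cre, against 850.2 and 623 in fl/fl. Both dLck-Cre libraries lay above both fl/fl libraries, and the log2 difference was 1.54 ± 0.22 (SE), or 2.13 ± 0.26 after T cell scaling. The ratio of Il1rn to Il1r1 counts was 3.65 and 6.67 in dLck-Cre, against 0.448 and 0.328 in fl/fl. Macrophages and epithelial cells are known sources of this antagonist, and their markers were higher in the same libraries, at median log2 differences of 1.12 for 26 monocyte and macrophage markers and 1.28 for 26 epithelial markers. Their part in the Il1rn difference was not tested.

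**Figure D2:**
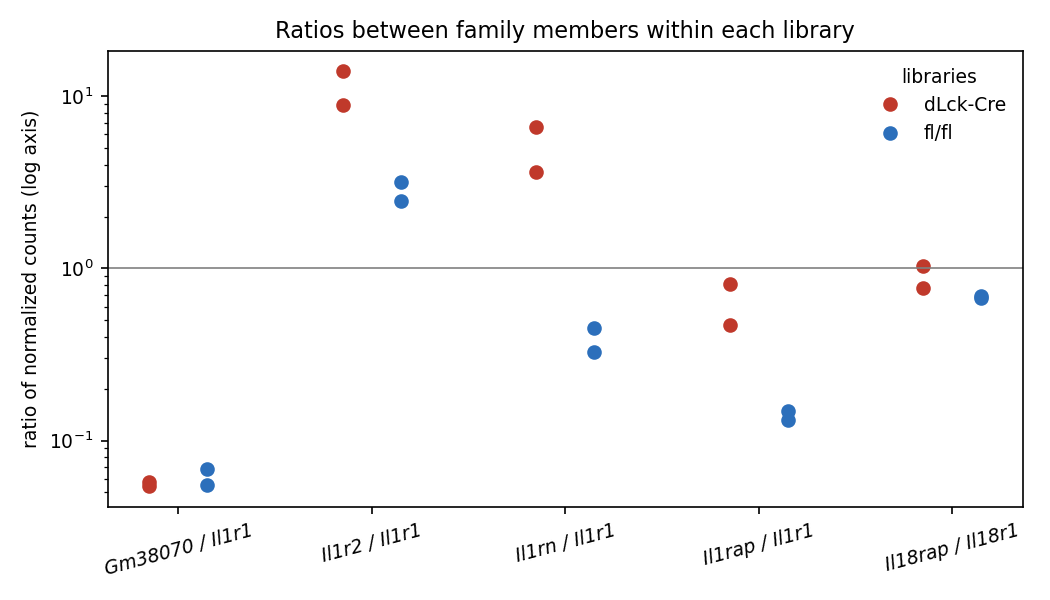
Ratios of normalized counts between pairs of members within each library (log axis), with dLck-Cre in red to the left of fl/fl in blue. The ratios of Il1r2, Il1rn and Il1rap to Il1r1 are higher in both dLck-Cre libraries than in either fl/fl library. They share the lower Il1r1 as denominator, so a member that fell less has a higher ratio by construction. Gm38070 to Il1r1 stays between 0.0546 and 0.0685 in all 4 libraries.

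The IL-18 receptor genes were the most abundant signalling members. Il18r1, the ligand-binding chain, had 7639 and 8314 normalized counts in dLck-Cre, against 10869 and 14632 in fl/fl. The groups did not overlap, and the log2 difference was -0.66 ± 0.17 (SE), short of the threshold over all genes in limma and edgeR and past it in DESeq2, with the replicate number as a block, and without fl/fl replicate 1. After T cell scaling it was -0.07 ± 0.18. Il18rap, the accessory chain, had 5892 and 8575 normalized counts in dLck-Cre, against 7310 and 10132 in fl/fl, and the groups overlapped (log2 difference -0.28 ± 0.22 SE, or 0.32 after T cell scaling). The ratio of Il18rap to Il18r1 counts was 0.771 and 1.03 in dLck-Cre, against 0.672 and 0.693 in fl/fl, higher in both dLck-Cre libraries. Il18r1 had the lower log2 difference of the pair, so a higher mean log2 ratio follows by construction. The ratio is no separate result.

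Il1rl1, which encodes the IL-33 receptor ST2, had 433 and 574 normalized counts in dLck-Cre, against 360 and 589 in fl/fl. The dLck-Cre values fell inside the fl/fl range, and the log2 difference of 0.12 ± 0.26 (SE) changed sign when fl/fl replicate 1 or dLck-Cre replicate 2 was left out. Mast cells and innate lymphoid cells also carry ST2. Of the 5 mast cell and basophil markers and 9 innate lymphoid and gamma-delta T cell markers analysed, 0 passed limma and 0 edgeR. In DESeq2 1 and 2 of them passed, and 1 and 5 had an unadjusted limma p below 0.05. The list medians were 0.38 and 0.95, with 5 of the 5 and 6 of the 9 above 0. The part of these cells in the Il1rl1 level was not tested. Il1rl2, which encodes the ligand-binding chain of the IL-36 receptor, had 123 and 149.8 normalized counts in dLck-Cre, against 191 and 186 in fl/fl. The groups did not overlap, the log2 difference was -0.47 ± 0.22 (SE), and T cell scaling turned it to 0.12. Sigirr, the inhibitory receptor, had 946 and 699 normalized counts in dLck-Cre, against 1005 and 951 in fl/fl, without overlap, a gap between means smaller than that between the dLck-Cre libraries (log2 difference -0.27 ± 0.18 SE, or 0.33 after T cell scaling).

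**Figure D3:**
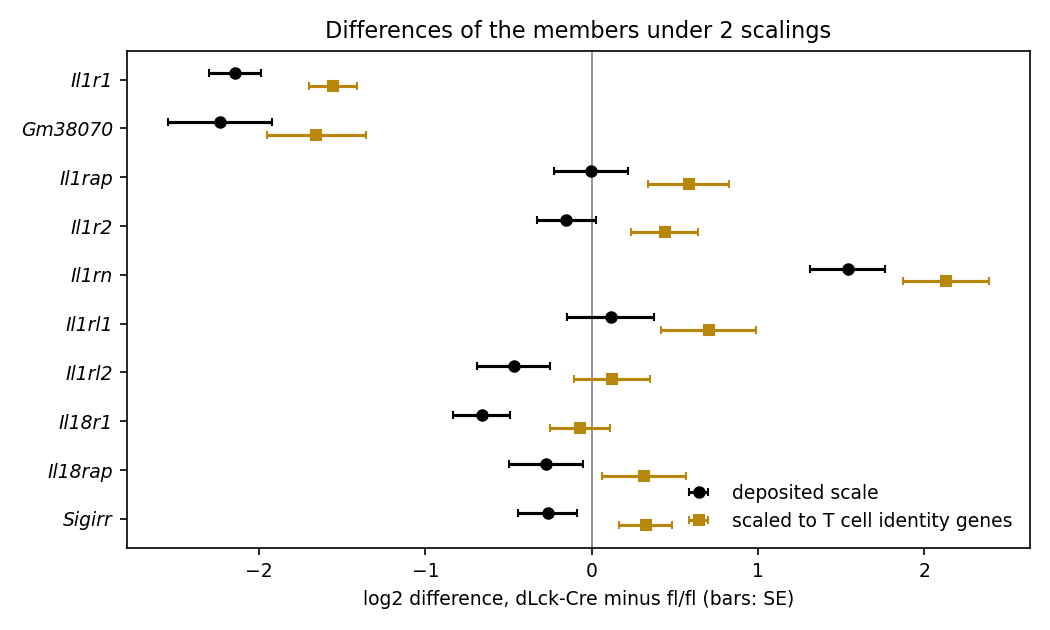
Log2 differences, dLck-Cre minus fl/fl, for each member with SE bars, on the deposited scale (black circles) and after scaling each library to T cell identity genes (gold squares). Il1r1 and Gm38070 lie below -1.5 and Il1rn above 1.5 on both scales, Il18r1 lies below 0 on both, Il1rl1 lies above 0 on both, and the other members change sign.

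Levels of different genes were set side by side per kilobase of annotated exon. In dLck-Cre the order from the highest was Il1r2 (2514 ± 411 normalized counts per kb, SD, n = 2), Il18r1 (1656 ± 99.1), Il18rap (1071 ± 281), Il1rn (389 ± 104), Sigirr (270.3 ± 57.4), Il1rl1 (73.0 ± 14.5), Il1r1 (67.8 ± 10.5), Il1rap (23.5 ± 5.44), Il1rl2 (20.1 ± 2.75) and Gm38070 (3.72 ± 0.440). Il1rl1 and Il1r1 were not separated in that order, nor were Il1rap and Il1rl2. In fl/fl the order was Il1r2 (2798 ± 512), Il18r1 (2647 ± 552), Il18rap (1292 ± 296), Sigirr (321 ± 12.5), Il1r1 (299 ± 0.499), Il1rn (133 ± 29.0), Il1rl1 (68.8 ± 23.5), Il1rl2 (27.7 ± 0.586), Il1rap (23.3 ± 1.93) and Gm38070 (18.1 ± 2.73), with Il1r2 and Il18r1 not separated. Il1r1 was thus at place 7 in dLck-Cre and place 5 in fl/fl, and Il1rn at place 4 in dLck-Cre and place 6 in fl/fl. With the longest transcript as the length, 8 of the 10 members kept their place in the fl/fl order, and Il1rap and Il1rl2 changed places.

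Neighbouring genes of the chromosome 1 cluster had unlike differences. The 7 members there, Gm38070 included, took 0.107% and 0.127% of all reads in dLck-Cre, against 0.132% and 0.172% in fl/fl. Of the reads of the cluster, Il1r1 held 2.54% and 1.64% in dLck-Cre against 7.47% and 5.67% in fl/fl, while Il18r1 held 40.6% and 35.6% in dLck-Cre against 42.8% and 43.6% in fl/fl. Il1rl2, the next gene after Il1r1, was at -0.47 and Il1r2, the gene before it, at -0.15. Of the 5 other genes of the table within 300 kb of the cluster, 1 passed limma's test, the sodium/hydrogen exchanger gene Slc9a2, which rose with 487 and 706 normalized counts in dLck-Cre against 286 and 219.8 in fl/fl (log2 difference 1.22 ± 0.23 SE, adjusted p = 0.0314). Slc9a2 is expressed in colonic epithelium, of whose 26 listed markers 22 rose, and their part in this difference was not tested. Map4k4, a kinase gene, was at -0.13 ± 0.13, Mfsd9 at 1.06 ± 0.57, and Gm16894 and Gm37347, annotated within the span of Il1r2 as antisense and TEC, at -0.24 ± 0.22 and 0.01 ± 0.18.

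**Figure D4:**
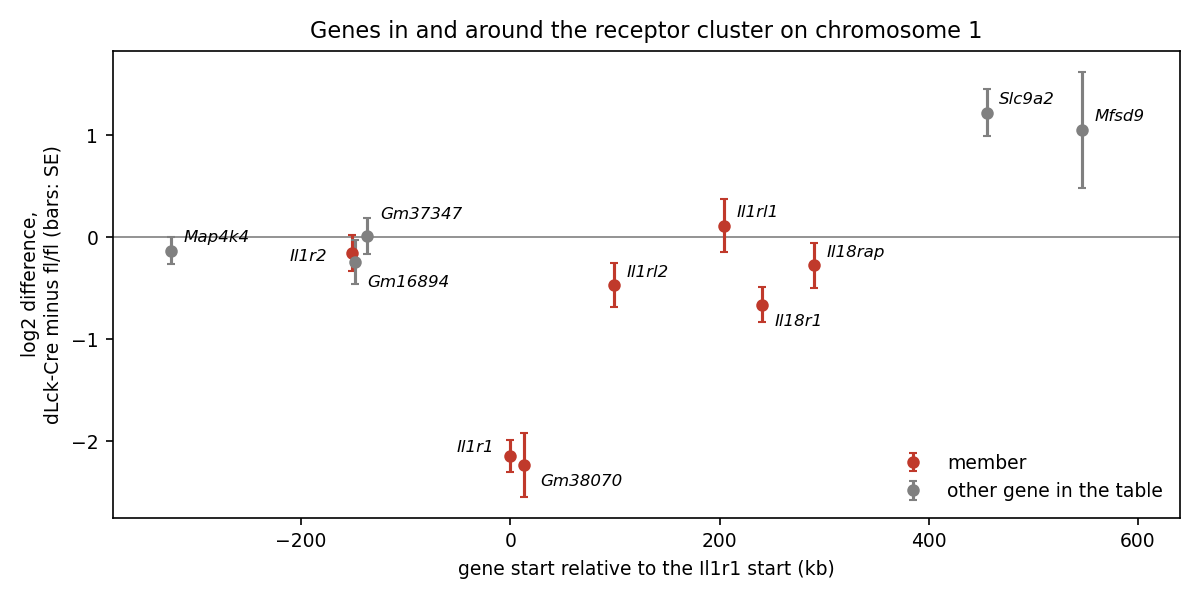
Log2 differences, dLck-Cre minus fl/fl, with SE bars, of the genes in and around the receptor cluster, placed by the distance of their start from the Il1r1 start in kb. Il1r1 and Gm38070 lie near -2.2 between Il1r2 and Il1rl2, which lie between 0 and -0.5, and Slc9a2 and Mfsd9 lie near 1.

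Among the 5 genes outside the family whose values over the 4 libraries were most like those of Il1r1, by Euclidean distance between log2 values centred on each gene's mean, were Tff1 (distance 0.210), Il9r (0.253), Acoxl (0.412) and Ccr4 (0.426), out of 12190 genes with a mean of at least 50. Gm38070, measured in the same way, was at 0.243. Il9r, the interleukin 9 receptor gene, had 55.4 and 37.6 normalized counts in dLck-Cre against 198 and 174 in fl/fl, and Tff1, a trefoil factor gene, had 407 and 274 in dLck-Cre against 1544 and 1386 in fl/fl. Trefoil factors are products of mucous epithelium, and the 26 epithelial markers of the list, which does not hold Tff1, lay above 0.

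Ligand genes of the family were higher where Il1r1 was lower. Il1b, the main inflammatory ligand of IL1R1, had 17272 and 16990 normalized counts in dLck-Cre, against 7541 and 6303 in fl/fl (log2 difference 1.31 ± 0.14 SE; limma, adjusted p = 0.0195). Ligand and soluble inhibitor genes were listed under older and newer symbols, and 6 of them were tested. Of the 6, 4 rose, Il1b, Il1a (1.26), Il18 (1.49) and Il18bp, which encodes the IL-18 binding protein (0.96), and 0 fell, at a median of 1.40. Il33 and Il1f9, which encodes IL-36γ, were at 1.81 and 1.76, short of the threshold in limma and edgeR, while DESeq2 called all 6 genes. Among 12 genes of cytokine processing and the inflammasome the sensors Nlrp6 (1.15), Nlrc4 (1.08) and Mefv (1.04) rose, 0 fell, and Casp1, the protease that matures IL-1β and IL-18, was at -0.004 (median 0.35). Macrophages and epithelial cells are known sources of these transcripts, their markers were higher in the same libraries at medians of 1.12 and 1.28, and their part in these differences was not tested. The calls of Il18 and Il18bp were each lost in 5 of 16 alternatives, of Mefv in 4, and of Il1a and Nlrc4 in 3.

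Of the 18 receptor-proximal signalling genes tested, 1 rose and 0 fell. That gene was Tifa, which encodes a TRAF6-binding adaptor, with 1420 and 1783 normalized counts in dLck-Cre against 613 and 669 in fl/fl (log2 difference 1.31 ± 0.16 SE; adjusted p = 0.0195 by limma). Epithelial and macrophage markers were higher in the same libraries, at medians of 1.28 and 1.12, and their part in the Tifa difference was not tested. The median over the 18 was 0.02, and Peli2 (1.07) and Tab3 (-0.48), the next by p, did not pass limma, edgeR or DESeq2. Myd88, the common adaptor, was at 0.31, Irak4 and Irak1, its kinases, at 0.22 and 0.08, and Traf6, the ligase downstream of them, at 0.10. Of 24 NF-kB and MAP kinase genes 0 passed limma and 0 edgeR, 1 passed DESeq2, and 3 had an unadjusted limma p below 0.05, at a median of 0.01. Nfkbiz, an NF-kB cofactor that IL-1 induces, had 8281 and 10285 normalized counts in dLck-Cre, against 10908 and 7675 in fl/fl. Its groups overlapped, and the log2 difference was 0.01 ± 0.20 (SE). Fos, the gene that DESeq2 called, was at 0.75 ± 0.20, short of the threshold in limma and edgeR. It was also past the threshold with the replicate number as a block. Mapk11 was at 0.86 ± 0.25 and did not pass limma, edgeR or DESeq2. After T cell scaling, which moves all genes up together, both passed, at 1.34 and 1.44.

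The T helper programs on which these cytokines act were counted separately, and differences between programs were not tested. Of 13 Th17 genes linked to IL-1, 5 fell and 0 rose, at a median of -0.86. Those that fell included the cytokine genes Il17a (-1.78) and Il21 (-1.20) and the transcription factor genes Batf (-0.86) and Rora (-0.78). Il17a had 369 and 456 normalized counts in dLck-Cre against 843 and 2374 in fl/fl. Leaving out fl/fl replicate 1 put Il17a at -2.53, and leaving out fl/fl replicate 2 put it at -1.04. Il21 had 167 and 188 normalized counts in dLck-Cre against 387 and 433 in fl/fl. Of 10 Th1 genes linked to IL-18, 0 passed limma and 0 edgeR, 1 passed DESeq2, and 1 had an unadjusted limma p below 0.05, at a median of -0.01. Eomes, which encodes a Th1 factor and is the gene that DESeq2 called, was at 0.71, short of the threshold in limma and edgeR. It was also past the threshold with the replicate number as a block and after T cell scaling (1.30). Ifng was set by 1 library, with 7454 and 32696 normalized counts in dLck-Cre against 7025 and 6435 in fl/fl, and without dLck-Cre replicate 2 its difference was 0.15. Of 10 Th2 and tissue-repair genes linked to IL-33, Klrg1 (2.07), Pparg (1.56) and Ikzf2 (1.21) rose and the chemokine receptor genes Ccr8 (-2.12) and Ccr4 (-2.09) fell, at a median of -0.21. Epithelial and macrophage markers were higher in dLck-Cre as well, at medians of 1.28 and 1.12. The part of other cells in the genes that rose was not tested. Ccr8 had 282 and 119.5 normalized counts in dLck-Cre, and its difference was -2.74 without dLck-Cre replicate 1 and -1.51 without dLck-Cre replicate 2. The share of reads in T cell identity genes, lower in dLck-Cre, moved with the Th17 genes as well, and its part was not tested. After T cell scaling Il21 (-0.61) was still past the threshold as lower, and Rora (-0.19), Batf (-0.27) and Il17a (-1.19) were not. Over the 16 alternatives the call of Il17a was lost in 7, of Rora in 5, of Batf in 4, and of Pparg and Ikzf2 in 3.

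Over all 92 pathway genes tested, 11 rose and 7 fell, 19.6% in all, against 6.97% of all genes tested. The lists were written with earlier results of these data known, and this share is a description. Without dLck-Cre replicate 2, 0 of the 92 passed limma (33 at an unadjusted p under 0.05), 5 passed edgeR and 14 passed DESeq2.

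**Figure D5:**
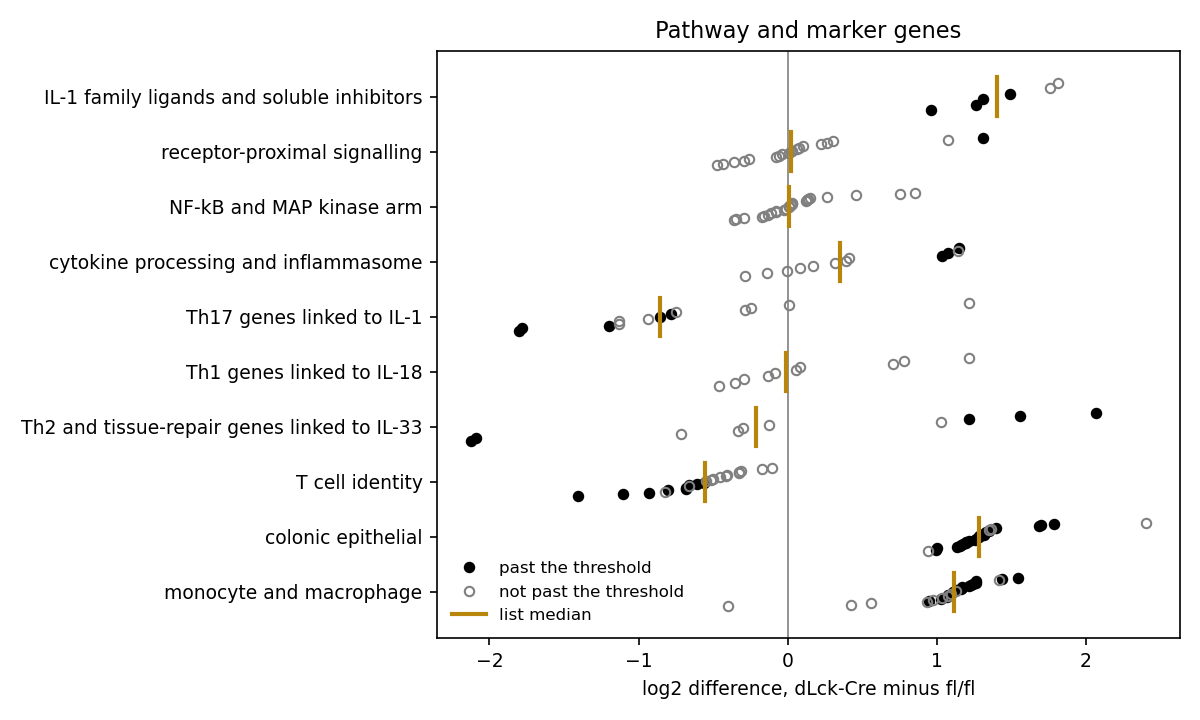
Log2 differences, dLck-Cre minus fl/fl, of single genes (points) in the pathway and marker lists, with filled points past the threshold over all genes and a gold line at each list's median. Ligands and inhibitors, epithelial and myeloid markers lie to the right, Th17 and T cell identity genes mostly to the left, and the receptor-proximal and NF-kB genes around 0.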

How the data were processed

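The deposited values are a signal: the authors scaled each library's gene counts by its own size factor, as the table's name and values show. In every library 100% of values were whole multiples of 1 step (tolerance 1e-06), which gave back whole reads. Reads were placed on mm10, per the submitters' processing notes; for aligner, counter, strand setting and annotation, nothing is given in the sources used here. In all, 16490 genes averaging at least 10 were compared on the log2(value + 1) scale, a pseudocount of 1, with limma 3.58.1 (intensity trend, R 4.3.3) and Benjamini-Hochberg adjustment at 0.05; a fold change on that scale understates low genes. An exact permutation test of 2 against 2 libraries cannot go below 0.333. edgeR 4.0.16 and DESeq2 1.42.0 on recovered reads were alternatives, and missing DESeq2 p-values were left missing. All were tested on simulated data. Replicates differed beyond sampling noise (chi-square per gene 34.7 in dLck-Cre, 25.4 in fl/fl).

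Coordinates, exon lengths and coding lengths came from GENCODE vM21 (GRCm38, the assembly of mm10) by symbol, and promoters from RefSeq. The members and lists were chosen with earlier results of these data known. Named genes were all members, Csnk2a1, up to 5 called genes of each list (where fewer than 2 passed, up to 2 more by p), the neighbours within 300 kb, and the 5 genes nearest to Il1r1; other genes, among them Myd88, Irak4, Irak1, Traf6, Casp1, Nfkbiz, Il33, Il1f9, Csf3r and Cd4, were chosen after their values were seen, as were the motifs. A gene that this rule also names is not reported here. Leaving out libraries with edgeR and DESeq2 was added after the data were seen.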

Additional observations from a re-analysis of the deposited data

How the results depend on the processing

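Il1r1, Gm38070 and Il1rn kept their direction under the 24, 23 and 24 alternatives compared, at -2.30 to -1.56, -2.46 to -1.66 and 1.26 to 2.13. All 3 lost the threshold in limma without the trend and in limma without dLck-Cre replicate 2. Gm38070 and Il1rn also lost it in edgeR without that library, and Gm38070 in DESeq2 without fl/fl replicate 1. In DESeq2 without dLck-Cre replicate 2, Gm38070 had no adjusted p and was not called, and that setting is not part of its range. Genes past the threshold numbered 341 under quantile normalization, 6697 under T cell identity scaling (99.3% higher against 82.4%), 0 in limma without the trend (3443 at an unadjusted p under 0.05), 1768 in DESeq2 and 2096 with the replicate block. Pathway genes numbered 8, 51 and 0 in the first 3 of these and 29 with the replicate block, and members 0 in limma without the trend (4 unadjusted).

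Leaving out each library in turn gave 0 to 1231 genes, 0 to 23 pathway genes and 0 to 4 members in limma. Without dLck-Cre replicate 2, edgeR called 67 genes, 5 pathway genes and 1 member, against 0 in limma (2810 genes unadjusted), and DESeq2 called 415 genes. DESeq2 called 689 genes without fl/fl replicate 1 and 748 without fl/fl replicate 2. The cause of these shifts was not tested.

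T cell identity scaling, which moves all genes up together, turned Il1r2 to 0.44, Il1rl2 to 0.12, Il18rap to 0.32, Il1rap to 0.58 and Sigirr to 0.33. Among the pathway genes named by the rule above, it turned Tab3 to 0.11. Changes of sign in the other pathway genes were not counted. Il1rap was at 0.013 with TMM, 0.032 in edgeR and 0.016 in DESeq2. With each library left out in limma, Il1r2 ranged from -0.340 to 0.036, Il1rl1 from -0.240 to 0.470 and Il1rap from -0.242 to 0.232. In edgeR and DESeq2, Il1r2 was at 0.012 and 0.013 without dLck-Cre replicate 1, and at 0.052 and 0.047 without fl/fl replicate 2. Il1rl1 was at -0.098 and -0.118 without dLck-Cre replicate 2, and at -0.198 and -0.220 without fl/fl replicate 1. Il1rap was at 0.239 in both without dLck-Cre replicate 1, and at 0.129 and 0.106 without fl/fl replicate 1.

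Libraries share a replicate number and no stated pairing. Deviations of same-numbered libraries from their group means correlated at 0.11 over 16490 genes, and with the replicate block 4 members passed, Il18r1 as lower being the other. Gm38070, at 25 and 27 reads in dLck-Cre, is the member that depth limits most.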
